A study of Mus musculus with 5 samples.

Results

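Open chromatin was described at Tbx2, Tbx3, Tbx15 and Tbx18, members of the T-box family with roles in limb and skeletal patterning. Each gene was taken as a window, its body plus 100 kb on either side (RefSeq gene bodies of GRCm38.p6, the coordinates of mm10). ATAC-seq peaks of all 5 libraries that shared at least 1 bp were merged into 86713 regions, and 80 regions fell in the windows. Of these, 24 belonged to Tbx2, 22 to Tbx3, 22 to Tbx15 and 12 to Tbx18. A further 20 regions lay nearer to the neighbouring genes Tbx4 or Tbx5 than to Tbx2 or Tbx3 and were left out.

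The T-box family encodes transcription factors that bind DNA through a shared domain. Tbx2 and Tbx3 are closely related and act mainly as repressors; in the limb bud both are expressed along the anterior and posterior margins, and Tbx3 loss disturbs limb development in mice and, as ulnar-mammary syndrome, in people. In the mammalian genome each sits beside a relative that acts in limb outgrowth, Tbx2 beside Tbx4 and Tbx3 beside Tbx5. Tbx15 and Tbx18 form another related pair of repressors; Tbx15 is needed for normal skeletal growth, and Tbx18 is expressed in proximal limb mesenchyme as well as in somites and the urinary tract.

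The tissue was the anterior forelimb bud at E11.5 (40 to 48 somites), with 50K cells from the forelimb pair of each separately genotyped embryo, 1 embryo per library. The 3 mutant libraries came from PrxCre/+;Smarcc1c/c embryos and the 2 control libraries from Prx+/+;Smarcc1c/c embryos, so both groups carried the conditional Smarcc1 allele and only the mutants carried Cre. The Smarcc1 protein, BAF155, belongs to the core of BAF, the mammalian SWI/SNF complex that moves nucleosomes with the energy of ATP. Prx-Cre acts in limb mesenchyme, not in ectoderm, vessels or blood, so mutant buds still hold cells with an intact allele. The question of the series is the role of BAF in gene repression by GLI, which relays the Hedgehog signal. ATAC-seq cuts open DNA with a transposase, so a called peak marks a stretch of accessible chromatin. In such bulk tissue, fewer cells with an open region and less opening per cell cannot be told apart.

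The deposited files were 1 peak list per library, with 36719, 42794 and 27194 peaks on the autosomes and X in mutants 1, 2 and 3, against 68959 and 60333 peaks in controls 1 and 2. Mutant 3 stood apart with the shortest list. Each peak carried the authors' fold enrichment over the background of its own library; it is not scaled between libraries and is given here to describe and rank peaks. The lowest fold that any list held was 2.47, 2.46 and 2.52 in mutants 1, 2 and 3, against 2.43 and 2.29 in controls 1 and 2, and a region without a peak may still be open below that level. The number of reads is unknown, but the folds of each list lie on an even grid, from which a background level per position was derived. Whether this level follows depth alone cannot be said, since the peak-calling options are not stated. It was 5.48, 5.09 and 4.95 in mutants 1, 2 and 3, against 4.77 and 6.42 in controls 1 and 2, so the groups overlapped in it. At Smarcc1 itself a region over a gene end (chromosome 9, 110130829 to 110132866) reached folds of 9.26, 8.38 and 8.41 in mutants 1, 2 and 3, against 10.9 and 10.2 in controls 1 and 2; a peak there does not measure the deletion. Of 6 limb mesenchyme genes, mutants 1, 2 and 3 had a peak at an end of 6, 6 and 4 and both controls at an end of all 6, with none at Prrx2 and Tbx5 in mutant 3. Of 21 genes of ectoderm, endothelium, muscle precursors, neural crest, blood and hindlimb, 10, 12 and 7 had such a peak in mutants 1, 2 and 3, against 15 and 13 in controls 1 and 2; Trp63, Cdh5, Pecam1, Ptprc and Hba-a1 had none in any library. Of all regions within 1 kb of a gene end with a peak in both controls, 91.2%, 93.1% and 83.1% had one in mutants 1, 2 and 3. The part of other cells in the results below was not tested.

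The merged region over the start of Tbx18 had a peak in all 5 libraries. In mutant 3 it held 3 separate peaks, and whether any of them covers the start itself is not given here. The Tbx18 promoter sequence is shown because RefSeq's promoter table of GRCm38.p6 covers Tbx18 alone of the 4 genes. Tbx2, Tbx3 and Tbx15 have no entry in it. The 250 bases before the start, chr9:87731261-87731510 on the minus strand, read 5′ to 3′ as follows, with the only motif match in capitals.
Tbx18 promoter: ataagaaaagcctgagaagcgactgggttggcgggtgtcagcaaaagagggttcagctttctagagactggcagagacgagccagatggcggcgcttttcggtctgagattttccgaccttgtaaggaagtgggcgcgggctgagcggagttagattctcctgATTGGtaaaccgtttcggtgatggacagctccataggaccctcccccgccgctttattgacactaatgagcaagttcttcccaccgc
The capitals mark a CCAAT box (CCAAT on the opposite strand) at position 164 of the printed sequence. Each motif was searched on both strands, in this promoter and in 32851 promoters of the same length. CCAAT was found in 33.8% of all promoters, and GGGCGG, the GC box, in 32.7%. The TATA box, TATAAA, was found in 12.4% of promoters, and the E-box, CACGTG, in 6.02%. A T-box site, AGGTGTGA, was present in 1.12% of promoters. A GLI site, GACCACCCA, was present in 0.225% of promoters. The promoter had 54.0% G and C, against a median of 52.4% over all promoters.

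All 3 mutants had fewer regions with a called peak in the 4 windows than the controls. Peaks were found in 33, 39 and 16 regions in mutants 1, 2 and 3 and in 51 and 53 regions in controls 1 and 2. The means were 29.3 ± 11.9 in mutants (SD, n = 3) and 52.0 ± 1.41 in controls (SD, n = 2), a difference of -22.7. The groups did not overlap, with p = 0.2 in an exact two-sided permutation test, the smallest value possible for 3 against 2 libraries. The lists behind these counts were of unequal length. With every list shortened to its 27194 strongest peaks, mutants 1, 2 and 3 held 21, 24 and 16 of the 80 regions and controls 1 and 2 held 19 and 20, and the difference turned to 1.17 once regions were merged anew (exact permutation p = 0.8, n = 3 and 2). Set against each whole list, per 1000 regions of a library, 1.02, 1.00 and 0.677 lay in the windows in mutants 1, 2 and 3, against 0.781 and 0.940 in controls 1 and 2, a difference of 0.0391 (exact permutation p = 1.00, n = 3 and 2).

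Among single genes, Tbx2 and Tbx15 had fewer regions with a peak in every mutant than in either control, while the groups overlapped at Tbx3 and Tbx18. Over all merged regions the groups were apart as well. There 32398, 38839 and 23634 had a peak in mutants 1, 2 and 3, against 65278 and 56368 in controls 1 and 2. At Tbx2, 8, 13 and 4 regions had a peak in mutants 1, 2 and 3, against 15 and 16 in controls 1 and 2. At Tbx15 the numbers were 11, 12 and 7 in mutants 1, 2 and 3, against 18 and 15 in controls 1 and 2. At Tbx3 they were 7, 10 and 1 in mutants 1, 2 and 3, against 8 and 16 in controls 1 and 2. The controls thus differed from each other at Tbx3, and mutant 2 held more regions than control 1. At Tbx18, mutants 1, 2 and 3 had 7, 4 and 4 regions with a peak and controls 1 and 2 had 10 and 6. The exact two-sided permutation p was 0.2 at Tbx2 and Tbx15 and 0.4 at Tbx3 and Tbx18 (n = 3 and 2), and 0.4 for each after Benjamini-Hochberg adjustment over the 4 genes. The difference at Tbx2 was -7.17, against -2.00 with regions nearer to another protein-coding gene left out and -4.33 with a 50 kb flank (exact permutation p = 0.6 for both, n = 3 and 2). With lists of equal length the Tbx2 difference turned to 0.333. At Tbx15 it was -6.50, against -0.333 with lists of equal length (exact permutation p = 1.00, n = 3 and 2).

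**Figure D1:**
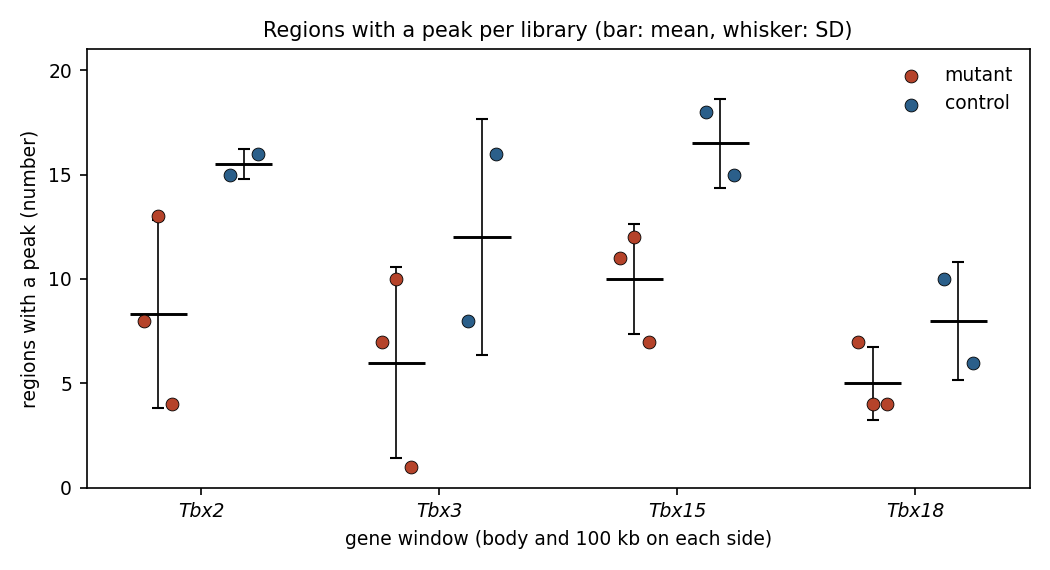
Number of regions with a peak (vertical axis) in each library at the 4 gene windows (horizontal axis), mutants in red left of controls in blue, with the mean as a bar and the SD as a whisker. All mutants lie below both controls at Tbx2 and Tbx15, and the 8 regions of control 1 at Tbx3 lie below the 10 of mutant 2.

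Of the 80 regions, 9 were gene-end, which means at most 1 kb from the start or the end of a protein-coding gene body, and 71 were distal, as were 68535 of all 86713 merged regions. The annotation used gives no exons and, for Tbx2, Tbx3 and Tbx15, no strand, so ends are named by their coordinate and exon and intron could not be told apart. Only 33 of the 80 regions had a peak in both controls, and these are called control regions below; 52.1% of all merged regions did. They comprised 7 gene-end and 26 distal regions. Another 38 (47.5%) had a peak in 1 control alone, as had 31330 of all 86713 merged regions. The last 9 had one in neither control.

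**Figure D2:**
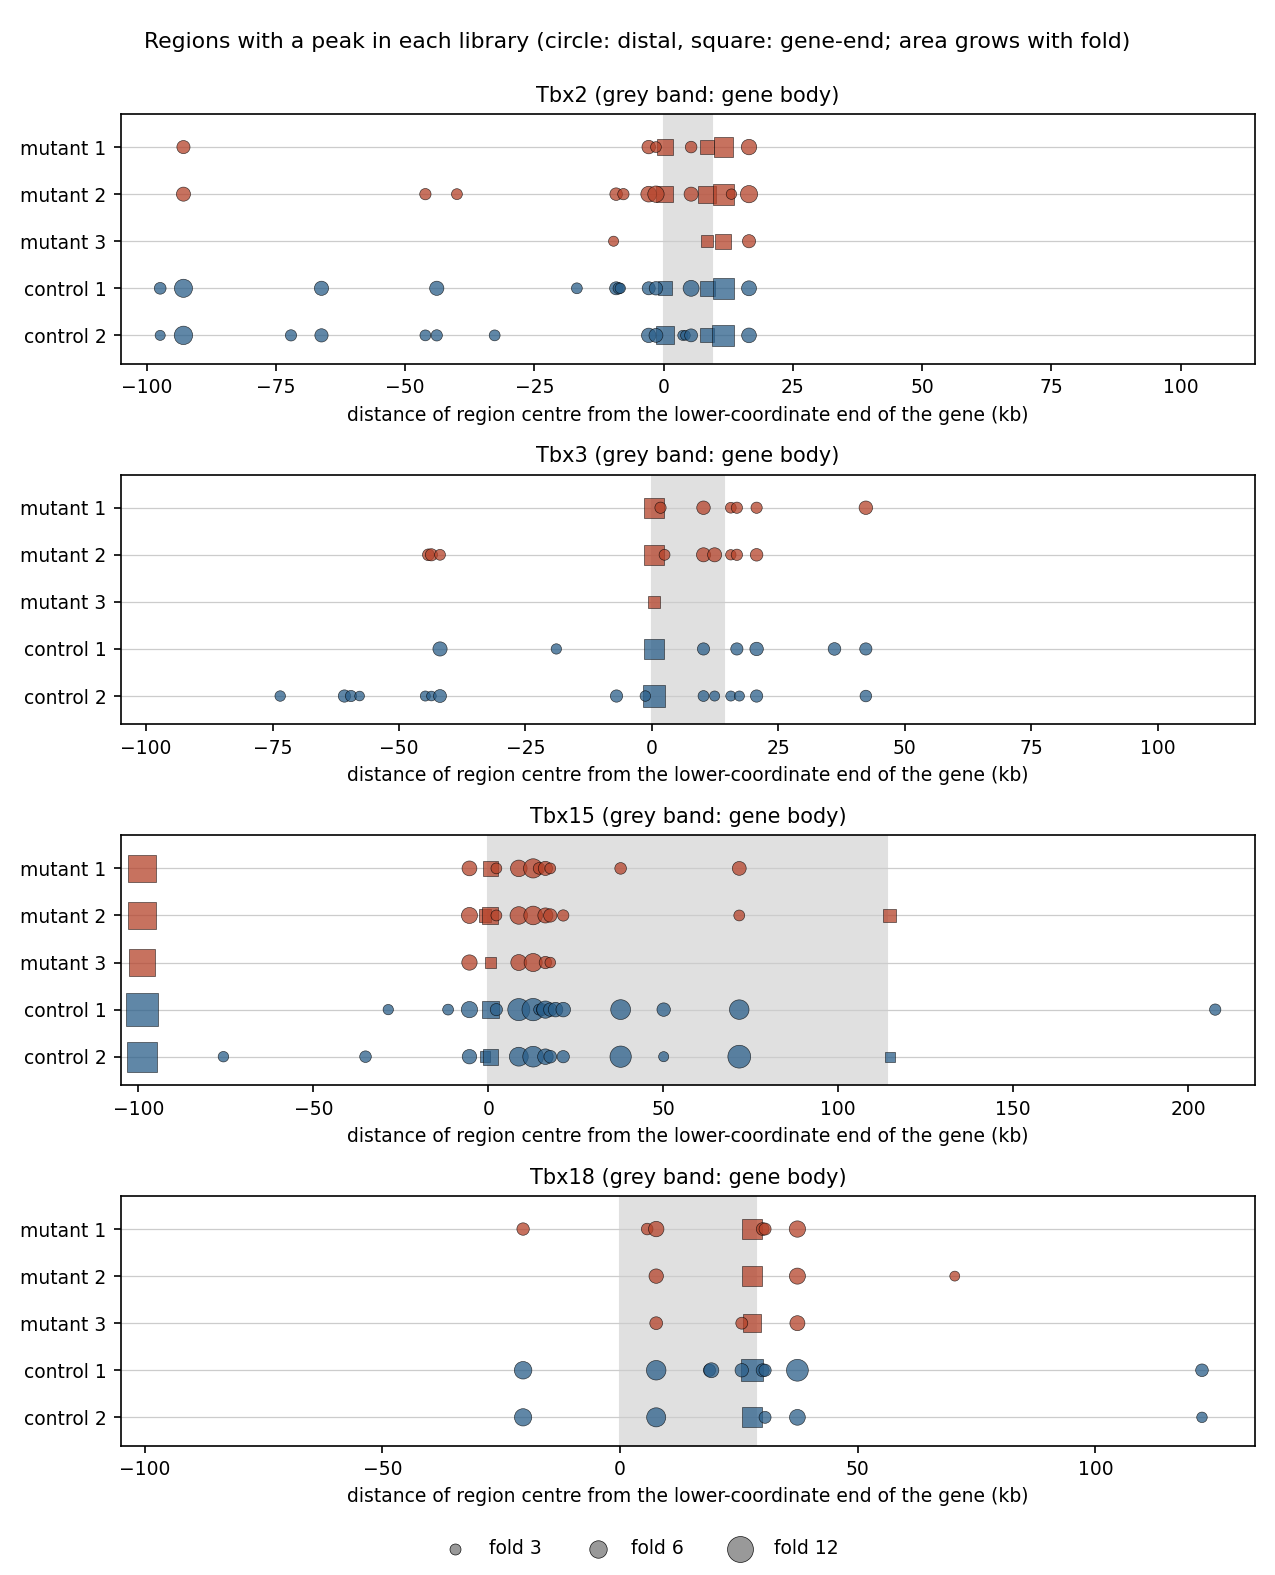
Regions with a peak in each library (rows) at the 4 genes, placed by the distance of the region's centre from the lower-coordinate end of the gene in kb (horizontal axis). Squares are gene-end and circles distal regions, the marker area grows with the authors' fold, and the grey band is the gene body; mutant 3 has 1 region at Tbx3 and 4 at Tbx2, and the square at the far left of Tbx15 is the end of Wars2.

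Of the 33 control regions, 14 had a peak in all 3 mutants, 8 in 2 mutants, 6 in 1 mutant and 5 in none. The 5 absent regions made up 15.2%, where 30.4% of all control regions of the genome were absent from every mutant, and the 14 made up 42.4%, where 43.4% of all were present in all 3 mutants. None of the 7 gene-end control regions was absent from every mutant, with a background of 4.64%, and 6 of the 7 had a peak in all 3 mutants, with a background of 81.3%. Of the 26 distal control regions, 5 (19.2%, background 42.0%) were absent from every mutant. Another 8 of the 26 had a peak in all 3 mutants, with a background of 26.4%. At the genome-wide rates for regions of the same class and control strength, 9.96 of the 33 would be absent. The share depended on the flank, with 2 of 28 (7.14%) at 50 kb and 15 of 48 (31.2%) at 200 kb, and on each control: without control 1 it was 20 of 56 (35.7%, background 41.0%) and without control 2 it was 19 of 54 (35.2%, background 47.8%), and without mutant 1 it was 9 of 33 (27.3%, background 35.1%).

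Mutant 3 lacked more of the control regions than the other mutants. Its background level of 4.95 was the lowest of the 3 mutants, with 4.77 and 6.42 in controls 1 and 2, and the part of depth was not tested. Mutants 1, 2 and 3 held a peak at 26 (78.8%), 24 (72.7%) and 14 (42.4%) of the 33 regions, where the background over all control regions was 60.9%, 61.4% and 48.2%. All 8 regions with a peak in exactly 2 mutants had it in mutants 1 and 2, as had 76.3% of such regions in the genome. The kept share differed from that of all other control regions by 17.9, 11.3 and -5.74 percentage points in mutants 1, 2 and 3, a mean of 7.83 ± 12.2 (SD, n = 3). The difference from the rest of the genome was thus smaller than the spread between mutants. At Tbx2 and Tbx3 mutant 3 held 3 of 11 and 1 of 5 control regions, and at Tbx15 and Tbx18 7 of 11 and 3 of 6.

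**Figure D3:**
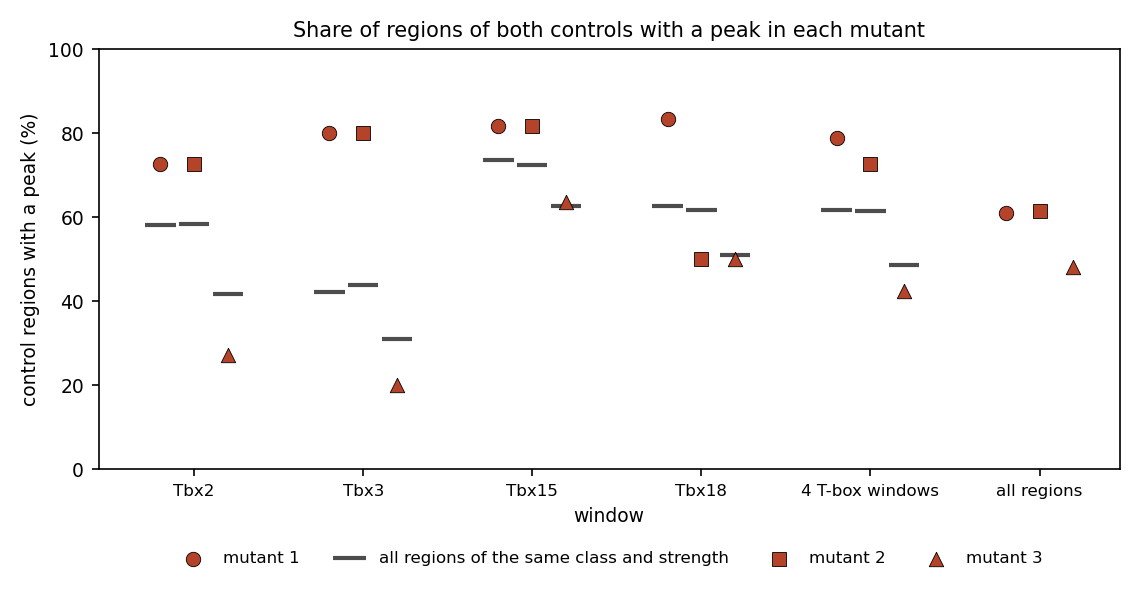
Share of control regions that held a peak in mutants 1 (circle), 2 (square) and 3 (triangle), in percent (vertical axis), for each gene window, for the 4 together and for all regions of the genome. Grey bars give the share over all regions of the same class and control strength; at Tbx2 and Tbx3 mutant 3 lies at 27.3% and 20.0%, below its bars at 41.6% and 31.0%, while mutants 1 and 2 lie above theirs.

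The 5 absent regions were weak in the controls. Their folds there ran from 2.69 to 4.33, and their mean percentile within the control lists from 13.0 to 52.4 with a median of 25.5. All 5 were distal. In their strength classes, 39.5% to 70.3% of distal control regions of the genome were absent from every mutant. The 14 regions found in all mutants had a median percentile of 80.7, over a range of 44.5 to 99.6, and the 8 distal ones among them had a median of 75.1. The ranges overlapped between 44.5 and 52.4.

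Tbx2 (chromosome 11, 85832615 to 85841948) carried a block of regions over its short body, and the control regions that every mutant lacked lay in its flank, within the neighbouring gene Bcas3. The lower-coordinate end (85831704 to 85833880) showed folds of 5.40 and 5.58 in mutants 1 and 2, no peak in mutant 3, and folds of 4.16 and 6.33 in controls 1 and 2. It was the only control region at a gene end of the 4 genes that any mutant lacked, and 16.9% of gene-end control regions of the genome had no peak in mutant 3. The higher-coordinate end (85839762 to 85842342) gave folds of 4.32, 5.91 and 3.36 in mutants 1, 2 and 3, against 4.68 and 4.18 in controls 1 and 2. The groups overlapped there. Just beyond it, the broadest Tbx2 region (85842593 to 85845608) was also the strongest, with folds of 7.10, 8.38 and 4.88 in mutants 1, 2 and 3, against 8.32 and 8.49 in controls 1 and 2. Mutant 3 had the lowest value and mutant 2 lay between the controls.

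Close to Tbx2, 4 distal control regions lay around and in its body, and mutant 3 lacked a peak at all but 1 of them. A region 2.21 kb before the lower-coordinate end (85828997 to 85830401) carried folds of 4.01 and 5.09 in mutants 1 and 2, no peak in mutant 3, and folds of 3.81 and 4.45 in controls 1 and 2. Its neighbour 1.10 kb from the gene (85830667 to 85831510) showed folds of 2.93 and 5.42 in mutants 1 and 2, none in mutant 3, and 3.99 and 4.18 in controls 1 and 2. Both overlap the noncoding gene 2610027K06Rik, and at both mutant 2 had the highest fold of any library. A region within the body (85837069 to 85838708) gave folds of 3.24 and 4.27 in mutants 1 and 2, none in mutant 3, and 5.20 and 3.77 in controls 1 and 2. The region 6.83 kb beyond the higher-coordinate end (85848782 to 85849480) was present throughout, with folds of 4.94, 5.91 and 3.87 in mutants 1, 2 and 3, against 4.68 and 4.58 in controls 1 and 2. Here mutants 1 and 2 lay above both controls and mutant 3 below them.

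The far Tbx2 flank held the control regions of this window that no mutant had. The distal control region of the window with the highest folds in both controls, 92.4 kb from Tbx2 within Bcas3 (85739337 to 85740173), showed folds of 3.86 and 4.27 in mutants 1 and 2, no peak in mutant 3, and folds of 6.42 and 6.60 in controls 1 and 2. Mutants 1 and 2 lay below both controls. Of the 4 control regions in Bcas3, the other 3 had no peak in any mutant: the region at 85734897 to 85735549 showed folds of 3.29 and 2.69 in controls 1 and 2, that at 85766039 to 85766698 had 4.33 and 3.91, and that at 85788501 to 85788933 had 4.33 and 3.10. All of these lie nearer to Bcas3 than to Tbx2. In the strength classes of the 3 absent regions, in the order given, 70.3%, 39.5% and 53.9% of the genome's distal control regions were absent too. With regions nearer to any other protein-coding gene left out, 2 of 28 control regions of the 4 windows (7.14%, background 30.4%) were absent from every mutant.

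The remaining 13 Tbx2 regions had a peak in 1 control or none. Folds in them ran no higher than 3.81 in any library. Mutant 2 alone had a peak at 85792522 to 85792730, at 85824632 to 85825021 and at 85845630 to 85845829, with folds of 2.96, 3.12 and 2.79, and mutant 3 alone at 85822741 to 85823054, with 2.69. Mutant 2 shared the region at 85786355 to 85786706 with control 2, with folds of 3.12 and 2.96, and the region at 85823125 to 85823649 with control 1, with folds of 3.61 and 3.81. The other 7 were in 1 control and no mutant: control 1 at 85815669 to 85815875, 85823805 to 85824004 and 85824090 to 85824289 (folds of 2.95, 3.12 and 2.77), and control 2 at 85760374 to 85760599, 85799792 to 85800060, 85836220 to 85836446 and 85836611 to 85836921 (folds of 3.10, 2.96, 2.69 and 2.56).

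Tbx3 (chromosome 5, 119670534 to 119684724) had 1 strong region at its lower-coordinate end and otherwise weak ones. The gene-end region (119669907 to 119671904), which also overlaps the noncoding gene Tbx3os1, had folds of 7.56, 8.05 and 3.53 in mutants 1, 2 and 3, against 8.15 and 8.76 in controls 1 and 2. All mutants lay below both controls, mutant 2 by a small margin, and mutant 3 stood far below the rest. It was the only region of the Tbx3 window in which mutant 3 had a peak.

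The 4 distal control regions of Tbx3 all kept a peak in at least 1 mutant. In the body near the higher-coordinate end (119680349 to 119681153) folds were 4.01 and 4.27 in mutants 1 and 2, with no peak in mutant 3, and 3.47 and 2.96 in controls 1 and 2. Mutants 1 and 2 lay above both controls there. A region that overlaps the noncoding gene Tbx3os2 (119690919 to 119691605) carried folds of 3.09 and 3.61 in mutants 1 and 2, none in mutant 3, and 3.99 and 3.50 in controls 1 and 2. The region 27.7 kb beyond the gene (119712472 to 119713248) had a fold of 4.01 in mutant 1 alone among mutants and of 3.47 and 3.23 in controls 1 and 2. The region 41.4 kb before the gene (119628080 to 119629162) had a fold of 2.96 in mutant 2 alone among mutants and of 4.33 and 3.77 in controls 1 and 2. Where mutants 1 and 2 had a peak, their low folds differed from those of the controls in no common direction. Mutant 3 had a peak at none of the 4, where 32.5% of distal control regions of the genome had one.

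The remaining 17 Tbx3 regions had folds of 4.27 or less. In the body, a region at 119682508 to 119683301 had a fold of 4.27 in mutant 2 and of 2.69 in control 2. Next to the gene, the region at 119685796 to 119686437 showed folds of 2.93 and 2.79 in mutants 1 and 2, against 2.69 in control 2, and that at 119687042 to 119687589 had 3.09 and 3.12 in mutants 1 and 2, against 3.47 in control 1. These lacked a peak in mutant 3 as well. A region at 119626777 to 119627110 showed folds of 3.45 in mutant 2 and 2.56 in control 2. Mutant 2 alone had a peak at 119626226 to 119626425 and at 119672895 to 119673157, with folds of 3.28 and 2.96, and mutant 1 alone at 119672067 to 119672382, with 3.09. No mutant had the last 10, of which 8 were in control 2, with folds of 2.56 to 3.50, and 2 in control 1, with 2.77 at 119651512 to 119651711 and 3.64 at 119706447 to 119706805. The 8 of control 2 began at 119596854, 119609607, 119610801, 119612592, 119625501, 119663365, 119669083 and 119687691.

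Tbx15 (chromosome 3, 99240348 to 99354260) had a peak in the region over its lower-coordinate end in every library. Deeper in its long body it held regions that were strong in both controls and weak or missing in mutants. The gene-end region (99239929 to 99241915), which overlaps the noncoding gene Gm46817, had folds of 4.78, 5.26 and 3.20 in mutants 1, 2 and 3, against 5.55 and 5.12 in controls 1 and 2. A region 3.94 kb before the gene (99233490 to 99236404) showed folds of 4.63, 5.26 and 4.88 in mutants 1, 2 and 3, against 5.37 and 4.45 in controls 1 and 2. The groups overlapped at both. The body region with the highest mean fold in the controls (99251587 to 99254633) gave folds of 7.10, 6.73 and 6.39 in mutants 1, 2 and 3, against 9.19 and 8.08 in controls 1 and 2. Its neighbour (99247661 to 99250501) had 5.55, 6.08 and 5.21 in mutants 1, 2 and 3, against 9.02 and 6.87 in controls 1 and 2. All mutants lay below both controls at these 2 regions. The same order held at the ends of Wars2 and Smarcc1, so it is not particular to Tbx15, and folds are not scaled between libraries. In every library the region at 99251587 to 99254633 exceeded the gene-end region, 1.49, 1.28 and 2.00 times in mutants 1, 2 and 3, against 1.66 and 1.58 times in controls 1 and 2. This ratio is within a list, and the groups overlapped in it.

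Further along this block of the Tbx15 body the regions were weaker. The region at 99255942 to 99257415 showed folds of 4.32, 4.76 and 3.53 in mutants 1, 2 and 3, against 5.90 and 4.99 in controls 1 and 2, with all mutants below both controls. The region at 99257502 to 99258571 showed folds of 2.93, 3.94 and 2.86 in mutants 1, 2 and 3, against 3.99 and 3.64 in controls 1 and 2. The region at 99261200 to 99262255 had a fold of 3.12 in mutant 2, no peak in mutants 1 and 3, and folds of 4.51 and 3.50 in controls 1 and 2. Mutant 2 lay between the controls at the region before this one and below both of them here.

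At Tbx15, 2 regions far inside the gene had high folds in both controls and low folds or no peak in the mutants. The region centred 37.8 kb from the lower-coordinate end (99277709 to 99278533) had a fold of 3.24 in mutant 1, no peak in mutants 2 and 3, and folds of 7.46 and 8.49 in controls 1 and 2. The region centred 71.7 kb in (99311494 to 99312654) carried folds of 4.17 and 2.96 in mutants 1 and 2, no peak in mutant 3, and folds of 7.28 and 9.57 in controls 1 and 2. In both controls each of these exceeded the Tbx15 gene-end region of the same list, and in each mutant each lay below it or had no peak. Both were in the ninth of 10 strength classes of control regions. With all lists shortened to equal length, the region 37.8 kb in lacked a peak in every mutant, and the region 71.7 kb in had one in mutant 1 alone among mutants. Shortening can only take peaks away from a list. The peaks lost had folds of 3.24 in mutant 1 and 2.96 in mutant 2, below the lowest folds kept there, 3.39 and 3.61. The shortened lists thus give no separate support for a difference at these regions. These 2 regions were singled out after their values were seen, and no genome-wide share of regions with such a pattern is given beside them.

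Other Tbx15 regions were weak, apart from an end of Wars2, the gene of mitochondrial tryptophanyl-tRNA synthetase, which lies in the window 98.2 kb from Tbx15 (99140595 to 99142119). There folds were 13.4, 13.5 and 12.6 in mutants 1, 2 and 3, against 18.4 and 16.0 in controls 1 and 2, with all mutants below both controls. This end of Wars2 was the strongest region of all 4 windows in every library. A region 50.1 kb into the body (99290159 to 99290681) showed folds of 3.99 and 2.69 in controls 1 and 2 and no peak in any mutant. The higher-coordinate end of Tbx15 (99354772 to 99355382) had a peak in mutant 2 and control 2 alone, with folds of 3.78 and 2.69, as had a region before the lower-coordinate end (99239290 to 99239663), with 3.45 and 2.83. A region at 99242477 to 99242852 showed folds of 2.93 and 2.96 in mutants 1 and 2, against 3.47 in control 1, and one at 99254740 to 99254944 had 3.24 in mutant 1 and 2.95 in control 1. The last 7 regions had a peak in 1 control and no mutant. Control 1 had 99211645 to 99211885, 99228633 to 99228974, 99255608 to 99255862, 99259371 to 99259690 and 99447908 to 99448113, with folds of 2.77, 2.95, 3.29, 4.51 and 3.12, and control 2 had 99164443 to 99164783 and 99205083 to 99205468, with folds of 2.83 and 3.23.

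**Figure D4:**
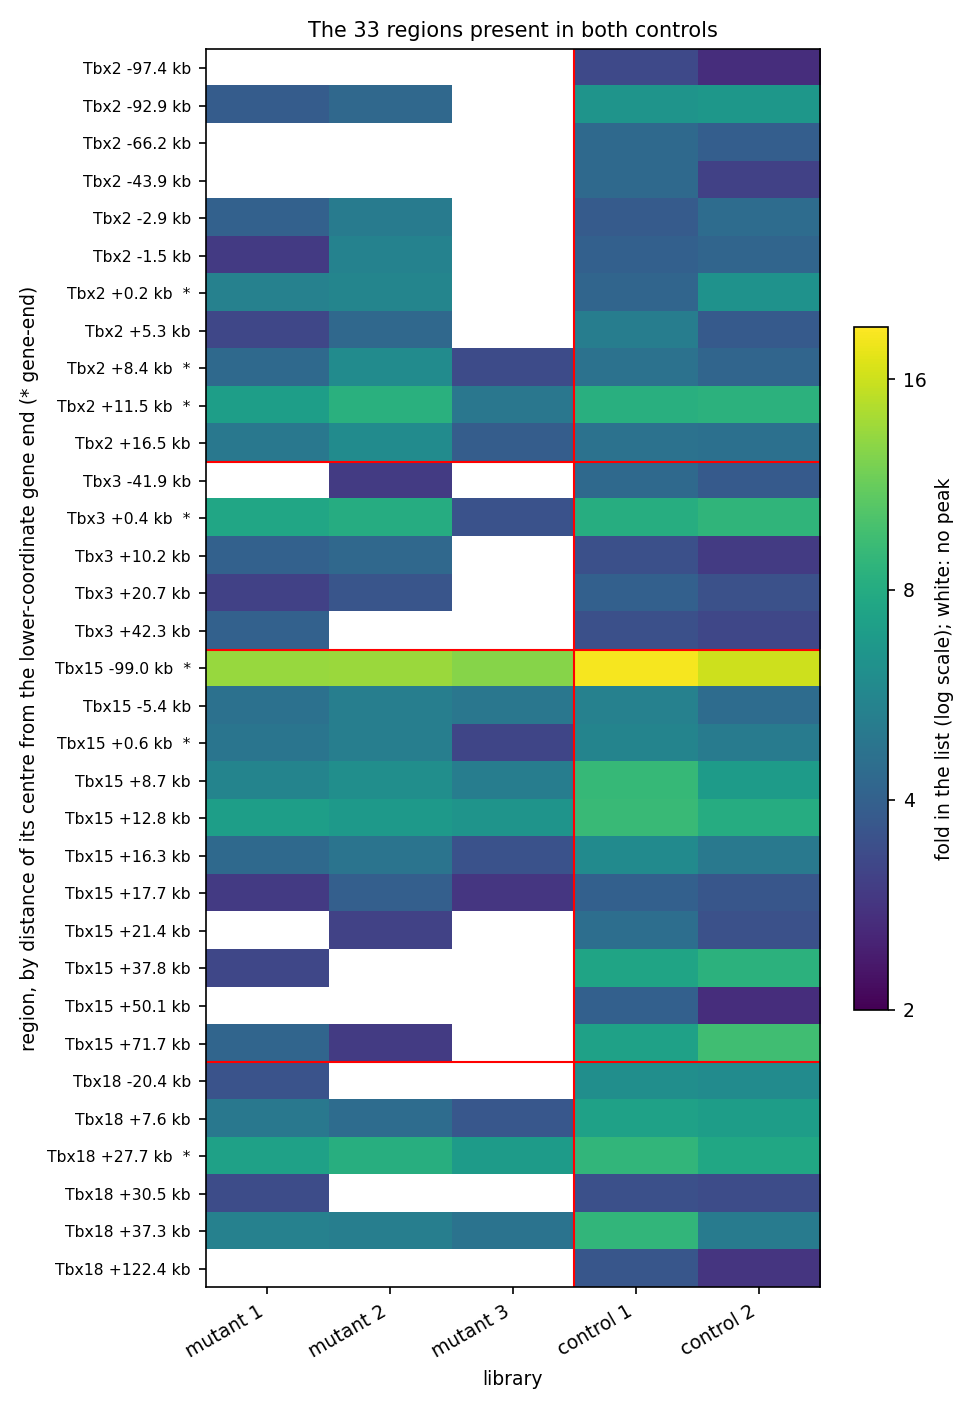
The authors' fold (colour, log scale) of the 33 control regions in each library (columns), with regions in rows by gene and by the distance of their centre from the lower-coordinate gene end in kb; white marks no peak and an asterisk a gene-end region. White cells gather in mutant 3 at Tbx2 and Tbx3, while the Tbx15 regions at +37.8 and +71.7 kb are strong in both controls and weak or white in all mutants.

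Tbx18 (chromosome 9, 87702800 to 87731260) kept a peak in the region over its start and in a region on either side of it in every library. The region over the start (87729252 to 87731717), which holds the promoter sequence printed above, had folds of 7.25, 8.21 and 6.90 in mutants 1, 2 and 3, against 8.84 and 7.68 in controls 1 and 2, and the groups overlapped. A region 7.73 kb before the start (87738992 to 87741123), which overlaps the noncoding gene Gm36767, had folds of 5.40, 5.26 and 4.71 in mutants 1, 2 and 3, against 8.84 and 5.12 in controls 1 and 2. The groups overlapped here too, and the controls differed widely. A region in the body (87710074 to 87710726) gave folds of 4.94, 4.43 and 3.70 in mutants 1, 2 and 3, against 7.28 and 7.01 in controls 1 and 2, with every mutant below both controls. Set against the start within the same list, it stood at 0.681, 0.540 and 0.536 times the start in mutants 1, 2 and 3 and at 0.824 and 0.913 times in controls 1 and 2. This region was picked by its control folds, so these values are given with no test.

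Downstream of Tbx18, 20.0 kb beyond its end, a region (87682057 to 87682790) had a fold of 3.55 in mutant 1, no peak in mutants 2 and 3, and folds of 6.07 and 5.93 in controls 1 and 2. A small region 1.89 kb before the start (87733154 to 87733427) carried folds of 3.39 in mutant 1, none in mutants 2 and 3, and 3.47 and 3.37 in controls 1 and 2. The most distant region, 93.6 kb before the start (87824839 to 87825500), showed folds of 3.64 and 2.83 in controls 1 and 2 and no peak in any mutant. Mutants 2 and 3 thus shared the same 3 Tbx18 control regions. The other 6 regions had a peak in no more than 1 control: mutant 1 shared 87732472 to 87733072 with control 1 (folds of 3.70 and 3.81), mutant 3 shared 87728191 to 87728656 with control 1 (3.36 and 3.99), mutant 1 alone had 87708394 to 87708662 (3.24), mutant 2 alone had 87773127 to 87773326 (2.63), and control 1 alone had 87721422 to 87721696 and 87721798 to 87722112 (3.47 and 4.68).

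Of the 80 regions, 0 had a peak in all 3 mutants without one in a control, with a background of 0.0484%, or 42 of all 86713 merged regions. The 9 regions without a peak in either control (11.2%, background 11.8%) were each in 1 mutant, 2 in mutant 1, 6 in mutant 2 and 1 in mutant 3, with folds of 2.63 to 3.28. Of the 38 regions in a single control, 26 had no peak in a mutant, 9 had one in 1 mutant and 3 in 2 mutants. The same split over all regions of the genome is not given here, and the mutant lists were shorter, so no loss particular to these windows can be read from it. The folds of the 38 regions in that control were 2.56 to 4.68. Regions found in 1 library alone numbered 35 (43.8%, background 41.1%).

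The limit of 100 kb had regions on both sides. The outermost regions inside it lay 97.1, 73.3, 98.2 and 93.6 kb from Tbx2, Tbx3, Tbx15 and Tbx18. The nearest beyond it lay at 112, 106, 105 and 113 kb. Of these, the region beside Tbx15 had folds of 3.64 and 3.77 in controls 1 and 2 and that beside Tbx18 folds of 3.64 and 3.91, both without a peak in any mutant, while a region 117 kb from Tbx2 within Bcas3 (85712635 to 85715384) showed folds of 5.25, 4.27 and 3.53 in mutants 1, 2 and 3, against 6.07 and 6.33 in controls 1 and 2.

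The windows of the 13 other T-box genes held 283 regions, of which 134 were control regions. Of these, 23 (17.2%, background 30.4%) had no peak in any mutant, and 65 had one in all 3 mutants (background 43.4%). These counts and those below do not split gene-end from distal regions, of which 81.3% and 26.4% in the genome had a peak in all 3 mutants. Tbx5, the forelimb identity factor and neighbour of Tbx3, had 7 of 21 control regions absent and 2 in all mutants. Tbx4, its hindlimb counterpart and neighbour of Tbx2, had 3 of 13 absent and 1 in all mutants. As at Tbx2 and Tbx3, mutant 3 held few regions at these neighbours, 1 at Tbx4 and 3 at Tbx5, where mutants 1 and 2 held 10 and 8 at Tbx4 and 13 and 16 at Tbx5 and controls 1 and 2 held 14 and 14 at Tbx4 and 32 and 29 at Tbx5. Tbx6, a factor of paraxial mesoderm, had all 15 of its control regions in every mutant, and Tbr1, a factor of cortical neurons, 6 of 7. Absent from every mutant were 3 of 13 at T (brachyury), 1 of 12 at Tbx1, 2 of 14 at Tbx10, 4 of 7 at Tbx19, 1 of 13 at Tbx21 and 1 of 11 at Mga. Tbx20, Tbx22 and Eomes had fewer than 5 control regions each. No difference between these genes and the 4 described here was tested.

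The share of a window's regions with a peak in each of the 5 libraries was compared between each gene and 12215 others with at least 10 regions, by Euclidean distance over the 5 libraries. Nearest to Tbx2 were Rnf157 (0.0473) and Anks1 (0.0545), and nearest to Tbx3 were Sox14 (0.0840) and Rsph1 (0.160). Nearest to Tbx15 were Lca5l (0.0405) and Brwd1 (0.0435), whose windows overlap, and nearest to Tbx18 were C1qtnf3 (0.101) and Sgpp2 (0.130). These distances are a description over 5 libraries. At Sox14, 33.3%, 50.0% and 8.33% of regions had a peak in mutants 1, 2 and 3, against 41.7% and 75.0% in controls 1 and 2; at Tbx3, 31.8%, 45.5% and 4.55% did in mutants 1, 2 and 3, against 36.4% and 72.7% in controls 1 and 2.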

How the data were processed

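ATAC-seq peak lists of 3 mutant and 2 control embryos were used, with groups from the labelled genotype. Replicates are numbered in sample order, which pairs nothing. Per the submitters' processing notes, the tools were bcl2fastq 2.20.0, Bowtie2 2.3.5 and MACS2, and the build was mm10. For the MACS2 version and options, duplicate removal and the transposase shift, nothing is stated (not given in the sources used here). Missing shifts would move borders by bases only. Per the labels, 1 list was deposited per library. Each deposited row holds start, end and summit position (other values), a display score (not used), the authors' fold enrichment ratio, and −log10 p-values and −log10 q-values.

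Peaks on chromosomes 1 to 19 and X were merged over libraries at 1 bp overlap (Python 3.11.15, pandas 2.3.3); 59 peaks on Y were left out. A region's fold is that of its strongest peak. Strength is the mean fold percentile in both control lists, in 10 classes. Genes came from RefSeq GRCm38.p6. Background levels came from the spacing of the fold values within each list. Motifs were searched in the bases before the start only, although the plan had included some after it. Group differences used exact two-sided permutation tests of means; region counts within a window are descriptions, since regions are not replicates. The merging and window steps were tested on simulated lists. Members, gene lists and tests were chosen with earlier results of these data known. Named genes were the 4 members with every region, Smarcc1, the other T-box genes (with counts for those with at least 5 control regions), protein-coding genes reaching into a window, and for each member the 2 genes nearest in profile. Alternatives were stricter peak thresholds, equal list lengths, other overlap rules, flanks and gene assignment, and leaving out each library.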

Additional observations from a re-analysis of the deposited data

How the results depend on the processing

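No paired analysis was possible because replicate numbers follow sample order and a number that mutants and controls have in common is a name only, with no embryo, litter or day in the labels to tie them. The number of reads is unknown, so the part of depth in which weak regions were called was not tested, nor was the cause of the changes below. No region had a peak in all mutants and neither control under any of the 13 other settings. The difference in regions with a peak (-22.7) ran from -28.0 to -16.0 with 1 library left out and turned to 1.17 with lists of equal length, where Tbx2 gave 0.333 and Tbx3 1.67; at Tbx3 it was -10.0 without control 1 and -2.67 without control 2, and at Tbx18 -1.0 and -5.00. The windows' number per 1000 regions (0.0391) was -0.0142 at a −log10 q of at least 5, -0.120 when peaks had to cover at least 50% of the region and -0.200 with a 200 kb flank, and ran from -0.0359 to 0.15 with 1 library left out. The mean kept share (64.6%) was 84.3% with lists of equal length and 45.2% under the 50% coverage rule, and ran from 43.5% to 75.8% with 1 library left out. Its difference from the rest (7.83 points) was -8.75 at a −log10 q of at least 10, -1.61 under the 50% coverage rule and -6.13 with a 200 kb flank, and ran from -3.07 to 14.6 with 1 library left out. The share absent from every mutant (15.2%, background 30.4%) ran from 15.2% to 35.7% with 1 library left out. It was 26.7% (4 of 15) at a −log10 q of at least 10, where it lay above the background of 23.9%, 5.88% (1 of 17) with lists of equal length (background 13.4%), 29.0% (9 of 31) under the 50% coverage rule (background 38%) and 24.0% (6 of 25) with summits within 250 bp (background 34.4%). With gene ends set at 2.5 kb the distal share absent from every mutant was 21.7%, against 19.2% at 1 kb.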

Other observations

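Between Tbx2 and Tbx4, a distal region left out of the Tbx2 window because Tbx4 is nearer (chromosome 11, 85875591 to 85877001) had a fold of 5.58 in mutant 2, no peak in mutants 1 and 3, and folds of 5.55 and 6.20 in controls 1 and 2. Between Tbx3 and Tbx5, a region nearer to Tbx5 (chromosome 5, 119777793 to 119778316) reached folds of 4.11 and 3.53 in mutants 2 and 3, no peak in mutant 1, and folds of 3.99 and 5.12 in controls 1 and 2. It was the only region of the 20 left-out ones, apart from a gene-end region of Tbx4 (85916601 to 85919004), with a peak in mutant 3. That Tbx4 region had folds of 3.09, 3.94 and 3.03 in mutants 1, 2 and 3, against 4.85 and 5.25 in controls 1 and 2.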
